A study of Homo sapiens and Mus musculus with 16 samples.

Results

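The comparison asked which messages change sides between the P-bodies and the cytoplasm when neurons are set against liver bud progenitors. The genes described were those of the human count table with a mean of at least 10 CPM (counts scaled to library size) in the neuron libraries and in the liver bud libraries. The members numbered 7082 of the 22286 genes in the table, and of the 22268 with a count in these libraries 15186 were left out. Nearest the limit, SMAD7 was a member at 10.0012 CPM in neurons and 40.8 in liver bud cells, and RIT1 was not, at 9.99898 and 19.9 CPM. For each gene the log2 ratio of P-body to cytoplasm in liver bud progenitors was subtracted from that in neurons, so that a positive difference means higher P-body enrichment in neurons.

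P-body-seq sorts GFP-LSM14A particles from lysed cells by fluorescence and sequences their RNA beside the fraction they were sorted from, which the labels call cytoplasm and which the study made by resuspending a pellet after nuclei had been spun out. The cells were differentiated from UCLA4-LSM14a-GFP human embryonic stem cells, in which, per the methods, a GFP-LSM14A copy sat at the AAVS1 locus beside the endogenous gene. The neurons were taken at day 20 of differentiation, and the liver bud progenitors carry no day in the labels. Each cell type had 2 P-body and 2 cytoplasm libraries, 8 in all, labelled as polyA RNA. The study saw sorted particles of different size and brightness in different cell types, and whether the line was a single clone is not given in the sources used here.

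P-bodies are cytoplasmic condensates of RNA and protein that hold the decapping machinery, the helicase DDX6, LSM14A, the translational repressor EIF4ENIF1 and Argonaute proteins. Messages inside them are held out of translation, and they are best known for AU-rich messages of regulators, whereas messages of the translation apparatus are classically found outside. Transcripts of the translation apparatus often start with a run of pyrimidines, the 5′ terminal oligopyrimidine (TOP) motif, which couples their translation to growth signals.

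Library totals ran from 6368953 to 11474847 counts, and 3 counts were worth between 0.292 and 0.427 CPM. The P-body replicates of neurons differed most, with a median absolute log2 difference of 0.192 across members against 0.0906 to 0.124 in the other groups. Ribosomal RNA genes took 11.4% to 13.4% of the counts in P-bodies and 20.4% to 24.9% in cytoplasm. The study calls the replicates biologically independent samples, the labels do not say which cultures they came from, and the p-values measure the spread between these libraries. The neuron libraries held the neuronal markers DCX, at 5138 and 5274 CPM in cytoplasm, and MAP2, at 3284 and 3101 CPM. Further neuronal markers lay between 103 and 2320 CPM, apart from SNAP25 at 23.7 to 30.2 CPM and RBFOX3 at 6.75 to 7.94 CPM. Of neural progenitor markers, the same libraries held PAX6 at 86.7 to 412 CPM, SOX2 at 65.0 to 247 CPM and NES at 100 to 221 CPM. SOX1, HES5 and FABP7 lay between 4.03 and 23.3 CPM. The liver bud libraries held endoderm and hepatic markers at low to moderate levels, with APOB between 111 and 281 CPM, TTR between 31.6 and 49.3 CPM, GATA4 between 16.3 and 41.5 CPM and HNF4A between 14.4 and 36.3 CPM, whereas AFP lay between 5.72 and 7.41 CPM and ALB between 0.00 and 0.20 CPM. The 29 endoderm and liver bud genes summed to 696 to 1059 CPM there against 263 to 463 CPM in neurons. The same libraries held the pluripotency genes POU5F1, between 76.9 and 100 CPM, and L1TD1, between 434 and 1462 CPM, and 20 primed pluripotency genes summed to 4866 to 7239 CPM there against 357 to 463 CPM in neurons. The 25 neural progenitor genes summed to 1786 to 2157 CPM in neurons and 1198 to 1351 CPM in liver bud progenitors. Among markers of other cells, 11 genes of mesenchyme and stroma summed to 282 to 429 CPM in liver bud progenitors and 71.7 to 136 CPM in neurons, and 7 genes of pancreas and intestine to at most 25.5 CPM in each library. The 11 genes of astrocytes, oligodendrocytes and neural crest summed to 151 to 201 CPM in liver bud progenitors and 185 to 240 CPM in neurons. For 7 genes of endothelium and blood the sums were 48.6 to 89.0 CPM and 13.3 to 47.5 CPM. In bulk libraries, fewer cells of a type and less RNA per cell cannot be told apart, and the part that other cells had in the differences was not tested. The 376 olfactory receptor genes, which neither cell type is known to use, held 0 members and summed to 392 to 399 CPM in neuron P-bodies and 43.4 to 48.4 CPM in neuron cytoplasm, against 73.7 to 74.6 CPM and 134 to 139 CPM in liver bud progenitors, and the part of such low counts in the differences was not tested.

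The difference in P-body enrichment passed for 2686 members, or 37.9%, with the quasi-likelihood test of edgeR at an adjusted p under 0.05. Enrichment was higher in neurons for 1257 members (17.7%) and higher in liver bud progenitors for 1429 (20.2%). Among the genes that were no members, 8.27% passed. Within neurons 2438 members (34.4%) were enriched in P-bodies and 2529 (35.7%) depleted, and within liver bud progenitors 2895 (40.9%) and 1610 (22.7%). The larger share of the 1257 genes did not change sides, since 697 were enriched in P-bodies of both cell types and 88 were depleted in both. The 1429 genes were spread more evenly, with 102 enriched and 95 depleted in both, 403 enriched in liver bud progenitors and not called in neurons, and 476 depleted in neurons and not called in liver bud progenitors. The split between the directions depended on the scaling. With library size only, the median difference of the members moved up by 0.357 and the calls were 2235 towards neurons and 677 towards liver bud progenitors, with the filter of edgeR on low counts they were 1681 and 1145, and with a fit of the members alone 2154 and 1091. Leaving out a neuron P-body library raised the genes higher in liver bud progenitors to 2285 without replicate 1 and 2335 without replicate 2, and leaving out the second liver bud P-body library lowered them to 951. All other values are given under TMM scaling, under which the median difference of all members was -0.08.

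**Figure D1:**
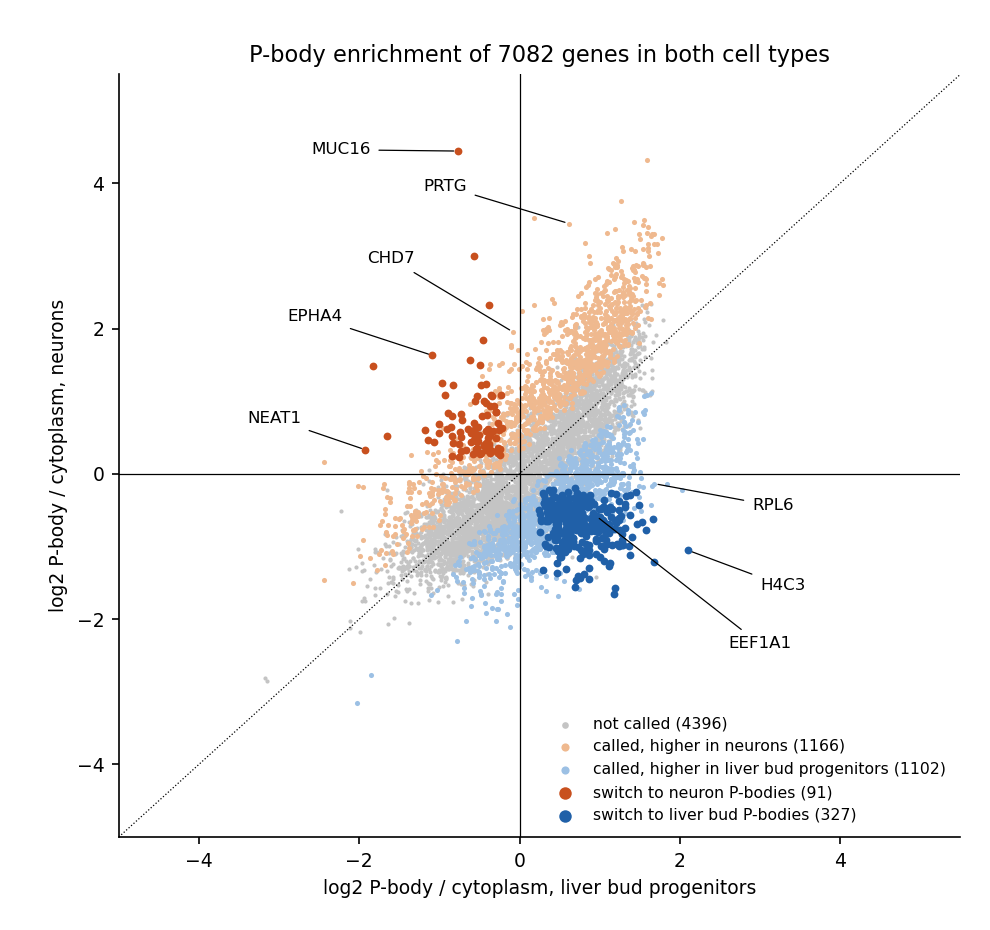
Each point is 1 of 7082 genes, with its log2 P-body to cytoplasm ratio in liver bud progenitors on the horizontal axis and in neurons on the vertical axis, and the dotted line marks equal enrichment. The 91 genes in the upper left go into P-bodies in neurons and out of them in liver bud progenitors, and the 327 in the lower right are the reverse.

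A gene was said to switch fraction when the difference passed and the gene was called enriched in one cell type and depleted in the other. In all, 418 members switched. Of these, 327 (4.62% of the members) were enriched in liver bud P-bodies and depleted in those of neurons, and 91 (1.28%) were the reverse. The calls rest on ratios to the cytoplasm libraries, and movement of messages was not measured. The libraries of the fractions stood apart in each cell type for all 418, where this held for 76.4% of all members. The switches were of moderate size. Switches towards liver bud P-bodies had a median log2 ratio of 0.71 in liver bud progenitors and -0.65 in neurons. Switches towards neuron P-bodies had a median of 0.57 in neurons and -0.52 in liver bud progenitors. With at least 1.5-fold in each cell type, 153 and 16 remained in the 2 directions, and with at least 2-fold 10 and 2. The 2 genes past 2-fold towards neuron P-bodies, named after their values were seen, were EPHA4 and MARCHF1, a membrane ubiquitin ligase. Library size only gave 151 switches towards liver bud P-bodies and 219 towards neuron P-bodies, so the excess of the first over the second was lost with that scaling. Without a neuron P-body library the switches towards liver bud P-bodies numbered 510 (replicate 1) and 571 (replicate 2).

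Of the switches towards neuron P-bodies, NEAT1 had the smallest p. NEAT1, the long non-coding RNA that builds paraspeckles in the nucleus (chromosome 11, 65422774 to 65445540, plus strand), was counted in these nucleus-depleted fractions at 212 and 224 CPM in liver bud P-bodies and 829 and 824 CPM in liver bud cytoplasm. In neurons it was scarcer, with 37.4 and 36.3 CPM in P-bodies and 30.2 and 28.3 CPM in cytoplasm. The fractions did not overlap in either cell type and their order was opposite, with a difference of 2.26 ± 0.11 on the log2 scale (edgeR adjusted p = 8.64e-09). EPHA4, an Eph receptor that guides axons (chromosome 2, 221418027 to 221574202, minus strand), had 402 and 475 CPM in neuron P-bodies against 129 and 154 CPM in neuron cytoplasm. In liver bud progenitors it had 16.3 and 15.8 CPM in P-bodies against 36.6 and 31.8 CPM in cytoplasm. It was thus 3.10-fold enriched in the first and 2.12-fold depleted in the second, a difference of 2.72 ± 0.17 (edgeR adjusted p = 8.22e-08). AKAP13, which anchors protein kinase A (chromosome 15, 85380571 to 85749358, plus strand), fell on opposite sides by nearly the same amount, with log2 ratios of 0.80 in neurons and -0.84 in liver bud progenitors. Its libraries held 685 and 623 CPM and 388 and 365 CPM in neuron P-bodies and cytoplasm and 206 and 215 CPM and 374 and 381 CPM in those of liver bud progenitors. MUC16, a membrane mucin (chromosome 19, 8848844 to 9010390, minus strand), had the largest difference among the switching genes, 5.21 ± 0.36, and rested on low counts in neurons. It had 2.04 and 1.02 CPM in neuron cytoplasm and 42.3 and 25.6 CPM in neuron P-bodies, against 57.0 and 50.6 CPM in liver bud P-bodies and 95.3 and 88.3 CPM in liver bud cytoplasm.

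Further genes of the 10 with the smallest p were MEIS1, NR6A1, CECR2, FILIP1L, AMOTL1 and SSH2. MEIS1, a homeodomain factor, had 1521 and 1368 CPM in neuron P-bodies and 592 and 617 CPM in neuron cytoplasm but 7.73 and 8.58 CPM and 18.1 and 14.1 CPM in the fractions of liver bud progenitors, a difference of 2.23 ± 0.16. NR6A1, an orphan nuclear receptor, differed by 2.30 ± 0.17, with 72.9 and 74.0 CPM in neuron P-bodies and 23.8 and 17.0 CPM in neuron cytoplasm. CECR2, a bromodomain protein of chromatin remodelling complexes, differed by 1.67 ± 0.11. The actin and junction proteins FILIP1L, AMOTL1 and SSH2 differed by 2.71, 1.603 and 1.31. For SSH2 the liver bud side was small, with 135 and 134 CPM in P-bodies and 153 and 161 CPM in cytoplasm, a log2 ratio of -0.23.

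In the other direction the 10 switches with the smallest p were H4C3, H4C5, YBX1, EEF1A1, RPL4, PABPC1, IDS, RPSA, RPS23 and DCX. H4C3, a replication-dependent histone H4 gene (chromosome 6, 26103933 to 26104337, plus strand), had 863 and 769 CPM in liver bud P-bodies and 195 and 184 CPM in liver bud cytoplasm. Neurons held 106 and 112 CPM of it in P-bodies and 224 and 229 CPM in cytoplasm. The order of the fractions was reversed without overlap, with a difference of -3.16 ± 0.11 (edgeR adjusted p = 3.05e-10). YBX1, a cold shock protein that coats messages (chromosome 1, 42682418 to 42703805, plus strand), was 2.14-fold enriched in liver bud P-bodies, at 1672 and 1572 CPM against 737 and 781 CPM in cytoplasm, and 1.68-fold depleted in neuron P-bodies, at 697 and 676 CPM against 1157 and 1144 CPM. DCX, the microtubule protein of migrating neurons (chromosome X, 111293779 to 111412429, minus strand), was a member because liver bud libraries also held some of it, 91.1 and 93.1 CPM in P-bodies and 61.8 and 53.9 CPM in cytoplasm. Neurons had 2817 and 2850 CPM in P-bodies and 5138 and 5274 CPM in cytoplasm, and the difference was -1.55 ± 0.09 (edgeR adjusted p = 5.48e-08). IDS, a lysosomal sulfatase, had 629 and 664 CPM in liver bud P-bodies against 329.8 and 339.6 CPM in cytoplasm, and 133 and 133 CPM in neuron P-bodies against 243 and 262 CPM in cytoplasm.

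**Figure D2:**
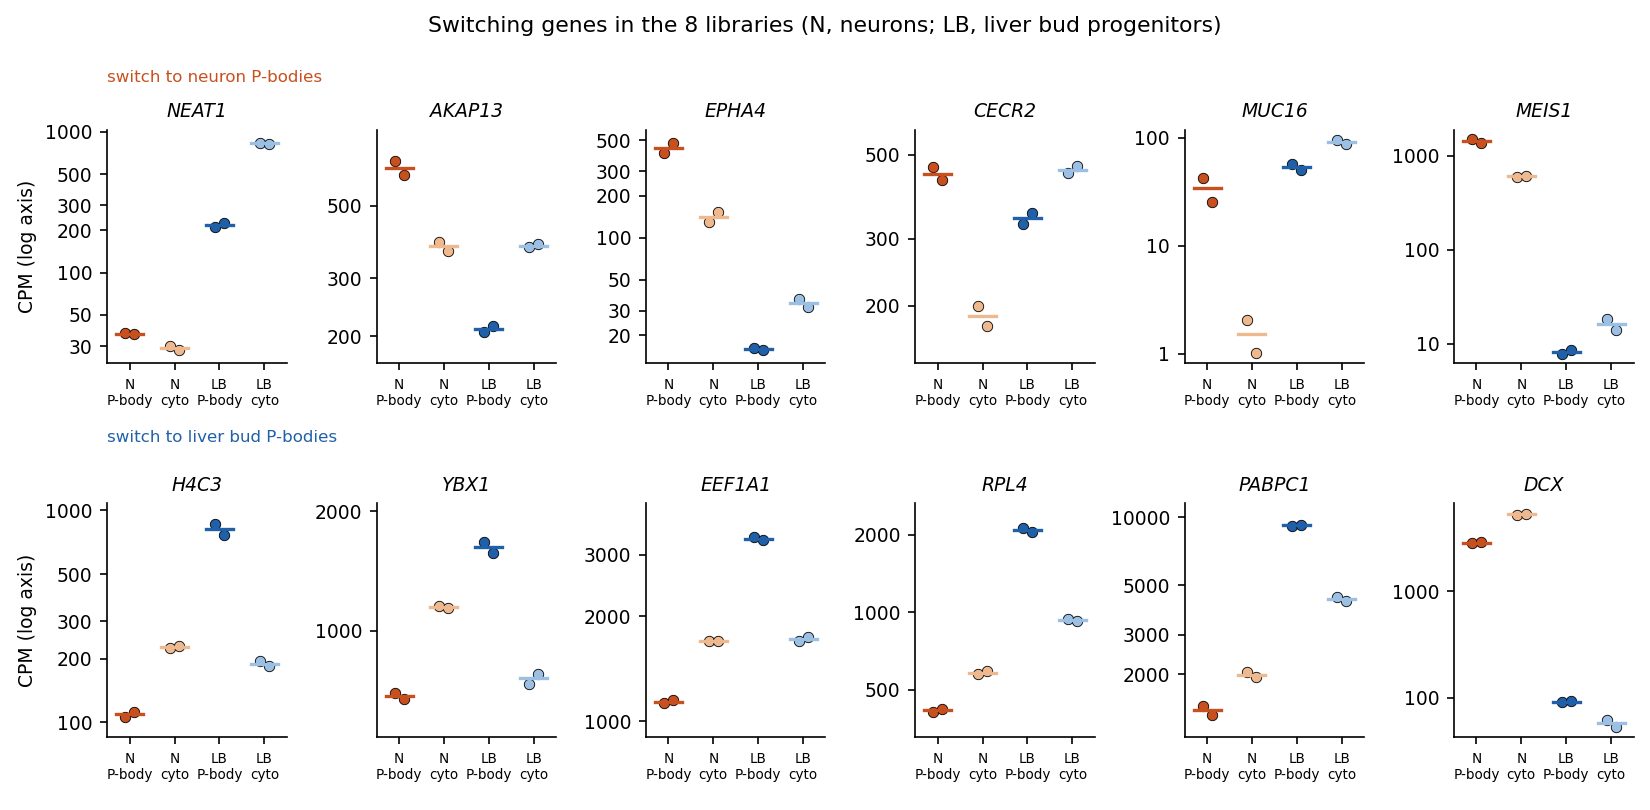
CPM of 12 switching genes on log axes, with 1 point per library and a bar at the mean of the 2 libraries of a group. In the upper row P-bodies exceed cytoplasm in neurons and fall below it in liver bud progenitors, and in the lower row the order is the reverse, as for H4C3 with 863 and 769 CPM in liver bud P-bodies and 106 and 112 CPM in neuron P-bodies.

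Among the lists, messages of the translation apparatus made up the largest block of switching genes. Of 72 cytosolic ribosomal protein genes among the members, 62 had higher enrichment in liver bud progenitors, 0 had higher enrichment in neurons and 10 did not pass, where 20.2% of all members were called in the first direction. The list had a median log2 ratio of 0.94 in liver bud progenitors and -0.48 in neurons and a median difference of -1.42, against -0.08 for all members. Switches numbered 42 of the 72. The 84 genes of the list summed to 14927 and 14122 CPM in liver bud P-bodies and to 7284 and 7245 CPM in liver bud cytoplasm. In neurons the sums were 5560 and 5664 CPM in P-bodies and 7686 and 7512 CPM in cytoplasm, so that the liver bud P-body libraries stood above all the others. RPL4, a protein of the large subunit, had 2115 and 2056 CPM in liver bud P-bodies against 944 and 927 CPM in cytoplasm, and 409 and 421 CPM in neuron P-bodies against 574 and 591 CPM in cytoplasm. Its difference was -1.64 ± 0.08 (edgeR adjusted p = 8.64e-09). RPSA and RPS23 of the small subunit differed by -2.00 ± 0.11 and -2.27 ± 0.13. RPL6 did not switch, since it was 3.20-fold enriched in liver bud progenitors but did not pass in neurons, at 146 and 166 CPM in P-bodies and 169 and 174 CPM in cytoplasm. Ribosomal protein genes, EEF1A1 and TPT1 have many near-identical processed copies in the genome, so that single members are uncertain where counting split such reads.

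The same pattern held for other transcripts known to start with a pyrimidine run. Of 22 such members outside the ribosomal proteins, 17 had higher enrichment in liver bud progenitors and 1 in neurons, with a median difference of -0.94, and 7 switched. Their 23 genes in the table summed to 22315 to 22430 CPM in liver bud P-bodies and 11157 to 11311 CPM in liver bud cytoplasm, and to 6777 to 7070 CPM and 8876 to 9042 CPM in the fractions of neurons. PABPC1, the cytoplasmic poly(A)-binding protein, was the most counted, with 9204 and 9233 CPM in liver bud P-bodies and 4419 and 4264 CPM in liver bud cytoplasm. Neuron libraries had 1450 and 1315 CPM in P-bodies and 2047 and 1942 CPM in cytoplasm, and the difference was -1.62 ± 0.08 (edgeR adjusted p = 8.64e-09). EEF1A1, the elongation factor that brings tRNA to the ribosome, had 3373 and 3303 CPM in liver bud P-bodies against 1699 and 1748 CPM, and 1126 and 1151 CPM in neuron P-bodies against 1700 and 1699 CPM. TPT1, the translationally controlled tumour protein, differed by -1.78 ± 0.11. EIF3E, a subunit of initiation factor 3, was 2.70-fold enriched in liver bud progenitors and lay at 71.2 and 69.6 CPM and 65.1 and 70.4 CPM in the fractions of neurons, which overlapped.

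The start sites of 6 of these genes are shown because the pyrimidine run is what the list is named for. Each is the RefSeq start with 10 bases before it and 20 bases from it on, on GRCh38.p14, with the longest run of C and T in capitals. The genes lie at chr6:73521013-73521042 (EEF1A1, minus), chr15:66504836-66504865 (RPL4, minus), chr3:39406710-39406739 (RPSA, plus), chr5:82278335-82278364 (RPS23, minus), chr12:112411423-112411452 (RPL6, minus), chr13:45341164-45341193 (TPT1, minus), chr15:85380593-85380622 (AKAP13, plus), chr2:221574183-221574212 (EPHA4, minus), chr22:17359939-17359968 (CECR2, plus), and the 3 first protein-coding switches towards neuron P-bodies follow for contrast.
EEF1A1: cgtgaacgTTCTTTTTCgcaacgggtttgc
RPL4: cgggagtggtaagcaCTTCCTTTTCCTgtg
RPSA: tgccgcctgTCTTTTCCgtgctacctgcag
RPS23: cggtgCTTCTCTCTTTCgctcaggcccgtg
RPL6: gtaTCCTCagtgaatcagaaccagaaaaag
TPT1: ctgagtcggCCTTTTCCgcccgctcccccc
AKAP13: gaCTggagctgtgtgcagggccagcgcgga
EPHA4: gcgCCTCggcacgcgtgctcatcttgtgta
CECR2: ttggCCTTaaaggaaaaaggatgaacaaat

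Runs of 8 to 12 pyrimidines spanned or neighboured the start in 5 of the 6 genes, and RPL6 had 5, while AKAP13, EPHA4 and CECR2 had 2, 4 and 4. Counted over all genes, a start site of C followed by 4 pyrimidines, read on the strand of the gene, was present in 4.04% of 27305 RefSeq promoters and in 6.11% of the 5797 members with one. Among the switches towards liver bud P-bodies it was present in 44 of 262 (16.8%), and among the switches towards neuron P-bodies in 1 of 74. The ribosomal protein list held 39 of 57 and the other pyrimidine-start list 11 of 15. Outside both lists, 17 of 227 switches towards liver bud P-bodies had it (7.49%). A RefSeq start is a single position, and starts used in these cells were not measured.

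Other parts of the translation apparatus moved less. Among 37 initiation factors, 16 had higher enrichment in liver bud progenitors and 3 in neurons, with a median difference of -0.49, and with library size only the counts were 8 and 5. EIF5B, which joins the ribosomal subunits, went the other way, at 732 and 815 CPM in neuron P-bodies against 145 and 160.4 CPM in cytoplasm and 859.7 and 863 CPM against 393 and 382 CPM in liver bud progenitors, enriched in both and by 1.19 ± 0.11 more in neurons. EIF4G2, a scaffold of alternative initiation, switched with small ratios of -0.30 and 0.30. Of 20 aminoacyl-tRNA synthetases, 3 passed, all towards liver bud progenitors (9 without the first neuron P-body library), and of 25 ribosome assembly factors 4 passed towards neurons and 3 towards liver bud progenitors, with a median difference of 0.00. Among the latter, the box C/D proteins NOP56 and FBL differed by -1.23 and -1.50, and NOP58 of the same particle by 0.54.

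Histone messages showed the largest median difference of the lists. Replication-dependent histone messages are made in S phase and end in a stem-loop in place of a poly(A) tail. Of 29 members, 26 had higher enrichment in liver bud progenitors and 0 in neurons, and 17 switched. Their median log2 ratio was 0.75 in liver bud progenitors and -1.0 in neurons, and the median difference was -1.81. Without the first liver bud cytoplasm library 10 switched. Summed over the 64 genes in the table, liver bud P-bodies held 4127 and 3943 CPM and liver bud cytoplasm 1852 and 2085 CPM, while neuron P-bodies held 1146 and 1125 CPM and neuron cytoplasm 2302 and 2173 CPM. H4C5 had 668 and 645 CPM in liver bud P-bodies and 233 and 276 CPM in cytoplasm, and 379.5 and 372 CPM in neuron P-bodies and 770.0 and 726 CPM in cytoplasm, a difference of -2.36 ± 0.11 (edgeR adjusted p = 6.26e-09). H4C4 and H2AC6 differed by -2.23 ± 0.18 and -1.99 ± 0.17. Histone genes of a class are near-identical in coding sequence, so single genes are uncertain. The study's polyA libraries were primed on poly(A) tails, and how these messages entered them was not tested.

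The stem-loops of the 4 histone messages with the smallest p are shown, from GENCODE 44 transcripts of genes on chromosome 6, with the 16 letters of the loop and its stem in capitals, matched on the RNA strand as GG, any 2 letters, CTTTT, any letter, AG, any 2 letters and CC.
H4C3: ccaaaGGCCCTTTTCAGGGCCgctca
H4C5: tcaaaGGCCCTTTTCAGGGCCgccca
H4C4: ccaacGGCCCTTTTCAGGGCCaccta
H2AC6: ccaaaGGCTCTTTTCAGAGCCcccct

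All 29 histone members held this motif, against 11 of 6938 other members. Of those 11, 2 had higher enrichment in neurons against 1 in liver bud progenitors, with a median difference of -0.06, and 0 switched. The 11 included the histone gene H2AX, which did not pass, with a difference of -0.87 (edgeR adjusted p = 0.0979). The match is one of letters, and whether the others form a stem-loop was not tested. Replacement histones are made outside S phase and carry poly(A) tails. Of 6 members, H2AZ1, H2AZ2 and H3-3B switched towards liver bud P-bodies, with differences of -1.63 ± 0.17, -1.07 ± 0.16 and -1.08 ± 0.13, and the other 3 did not pass. H2AZ1 had 136 and 128 CPM in liver bud P-bodies against 57.3 and 54.1 CPM, and 33.3 and 29.5 CPM in neuron P-bodies against 42.5 and 39.0 CPM. Of 9 high mobility group genes, HMGA2, HMGB1 and HMGB3 had higher enrichment in liver bud progenitors and HMGN5 in neurons. HMGA2, at 631 and 636 CPM in liver bud P-bodies and 283 and 247 CPM in cytoplasm, was near the lower limit in neurons, at 13.6 and 13.8 CPM and 17.2 and 16.2 CPM.

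Energy metabolism and protein turnover followed the translation apparatus. Of 37 subunits of oxidative phosphorylation, 23 (62.2%, beside 20.2% of all members) had higher enrichment in liver bud progenitors and 0 in neurons, and 14 switched. The median difference was -1.02, with 0.62 in liver bud progenitors and -0.59 in neurons. ATP5MC3, a ring subunit of the mitochondrial ATP synthase, had 89.2 and 90.0 CPM in liver bud P-bodies against 40.9 and 37.8 CPM, and 7.21 and 8.97 CPM in neuron P-bodies against 24.0 and 24.3 CPM, a difference of -2.76 ± 0.21 (edgeR adjusted p = 4.85e-07). The ATP synthase subunits ATP5F1C, ATP5PO and ATP5F1A switched as well, with differences of -1.75, -1.87 and -1.48. Of 27 mitochondrial ribosomal proteins 12 had higher enrichment in liver bud progenitors and 0 in neurons, of which MRPL42 alone switched. With library size only 3 were called in that direction, and without a single library between 4 (first liver bud cytoplasm) and 19 (first neuron P-body). Of 14 glycolysis enzymes, 9 had higher enrichment in liver bud progenitors and 0 in neurons. This list was depleted in both cell types at the median, at -0.98 in neurons and -0.29 in liver bud progenitors. TPI1, LDHB and PGAM1 switched, and GAPDH, depleted in both, had 1455 and 1431 CPM in neuron P-bodies against 2660 and 2508 CPM and 1548 and 1493 CPM in liver bud P-bodies against 1724 and 1797 CPM. Of 29 proteasome subunits 14, and of 16 cholesterol synthesis enzymes 8, had higher enrichment in liver bud progenitors and 0 in neurons, which fell to 9 and 5 without the second liver bud P-body library and to 8 and 3 with library size only, where 2 of each list passed towards neurons. PSMA5, of the core ring, differed by -2.04 ± 0.31, and its fractions overlapped in neurons, at 27.6 and 14.1 CPM in P-bodies and 32.1 and 27.1 CPM in cytoplasm. Among 19 chaperonins and heat shock proteins 5 passed towards liver bud progenitors (26.3%, beside 20.2% of all members) and 1 towards neurons. The median difference of this list was -0.33 and lay between -0.43 and -0.30 without 1 library. HSPA8, the constitutive Hsc70, switched, with 1643 and 1697 CPM against 1064 and 1027 CPM in liver bud progenitors and 558 and 489 CPM against 643 and 674 CPM in neurons, while HSPH1, a nucleotide exchange factor of Hsp70, was enriched in both and by 0.69 ± 0.12 more in neurons.

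**Figure D3:**
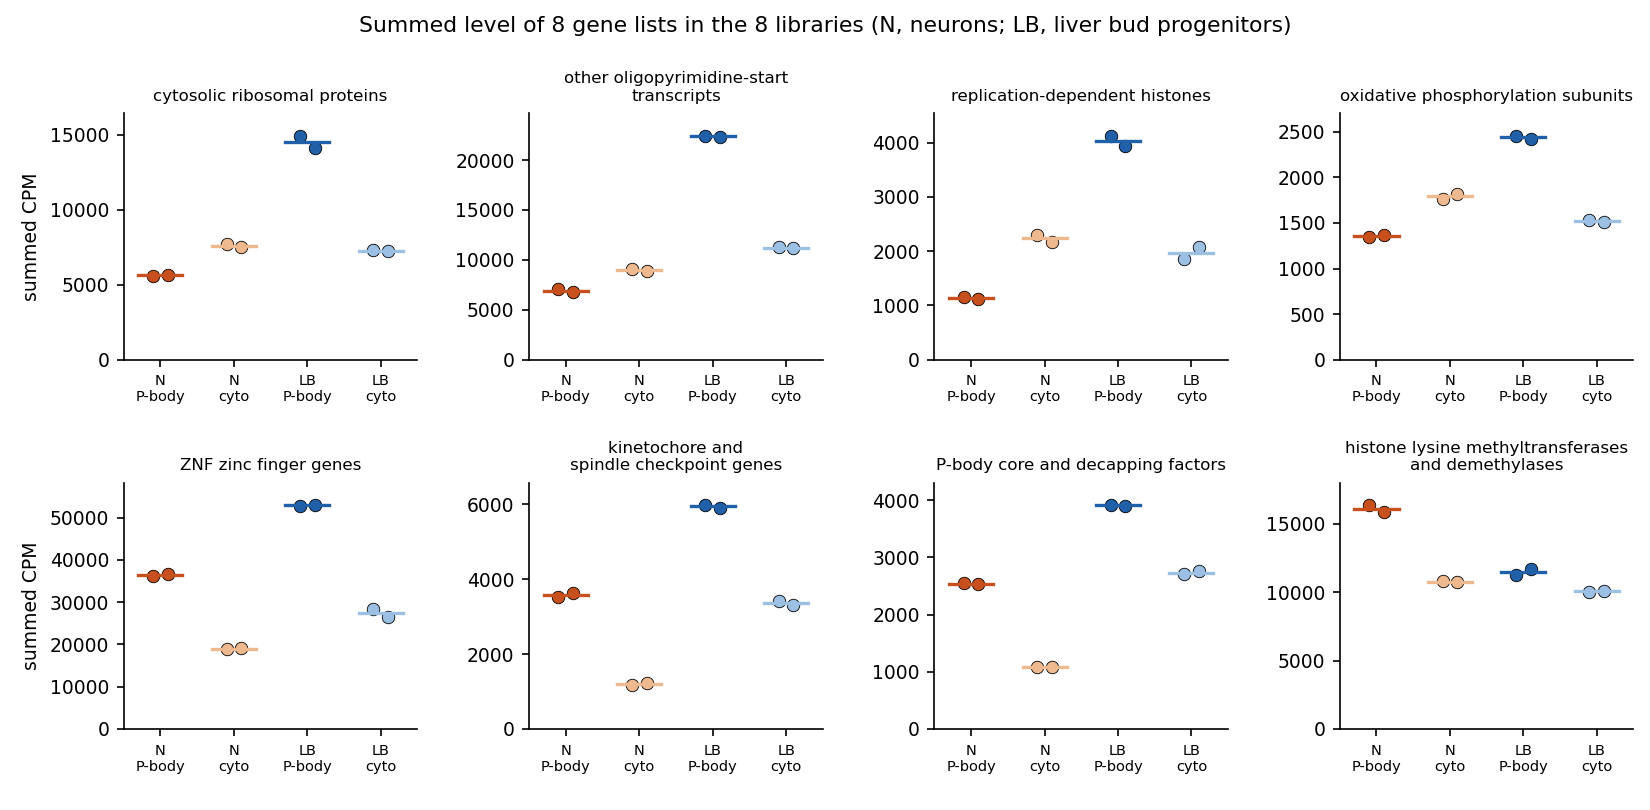
Summed CPM of 8 gene lists, with 1 point per library and a bar at the mean of the 2 libraries of a group, on axes that start at 0. In the first 3 panels and for oxidative phosphorylation the P-body libraries stand above the cytoplasm in liver bud progenitors and below it in neurons, and in the lower row they stand above it in both.

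Under TMM scaling, calls among the lists of cytoskeletal, synaptic and neuronal marker genes went mostly towards liver bud progenitors. Tubulins, actins and neuronal cytoskeleton genes, which summed to 42339 to 43131 CPM in neuron P-bodies and 68383 to 68516 CPM in neuron cytoplasm, had 19 of 36 members with higher enrichment in liver bud progenitors and 1, the neurofilament gene NEFL, with higher enrichment in neurons. TUBA1A, the alpha-tubulin of young neurons, had 2637 and 2699 CPM in neuron P-bodies and 5233 and 5351 CPM in neuron cytoplasm, against 221 and 202 CPM and 177 and 159 CPM in liver bud progenitors, and switched. STMN1, which disassembles microtubules, switched with a difference of -1.12 ± 0.12. Of 19 synaptic vesicle genes, 9 had higher enrichment in liver bud progenitors and 0 in neurons, among them PCLO of the presynaptic active zone, which switched with a difference of -0.70 ± 0.10, and SYT1, the calcium sensor of release, which lay at 104 and 111 CPM in neuron P-bodies and 103 and 127 CPM in neuron cytoplasm. Under scaling by library size alone the calls were 9 and 6 for the cytoskeleton list and 2 and 2 for the synaptic list. Among 16 neuronal marker genes 9 passed towards liver bud progenitors and 1 towards neurons. The 9 included DCX and the RNA-binding protein ELAVL3. ELAVL3 had 275 and 258 CPM in neuron P-bodies against 469 and 437 CPM and 36.9 and 38.8 CPM in liver bud P-bodies against 18.8 and 18.0 CPM. ANK3, the ankyrin of the axon initial segment, had 1403 and 1402 CPM in neuron P-bodies against 1536 and 1595 CPM and was 1.87-fold enriched in liver bud progenitors. The list of neuronal RNA-binding proteins did not share this direction. Of its 9 members 2 passed towards neurons, among them FXR1 with a difference of 1.09, and 1, ELAVL3, towards liver bud progenitors. The median difference of this list was 0.35, and between 0.08 and 0.30 without 1 library.

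Axon guidance genes were called towards neurons at a share near that of all members, and towards liver bud progenitors at a lower share. Of 35, 8 (22.9%) had higher enrichment in neurons, beside 17.7% of all members. Higher enrichment in liver bud progenitors was found for 3 (8.57%), beside 20.2% of all members. Switches towards neuron P-bodies were 4 of the 35, where 1.28% of all members switched that way. The median difference was 0.05, and without neuron P-body replicate 1 it was -0.16 and 10 were called towards liver bud progenitors. Among the 8, EPHA4, SLIT3, EFNB2 and NRP1 switched towards neuron P-bodies, the last pair named after their values were seen, and UNC5D, a netrin receptor likewise named, switched the other way. SLIT3, a secreted guidance ligand, had 164 and 151 CPM in neuron P-bodies against 112 and 109 CPM, and 6.202 and 5.21 CPM in liver bud P-bodies against 19.2 and 16.8 CPM, a difference of 2.17 ± 0.19 (edgeR adjusted p = 1.88e-06). ROBO2, a receptor of the Slit ligands, had 1073 and 1034 CPM in neuron P-bodies against 468 and 450.2 CPM but did not pass in liver bud progenitors, at 16.2 and 16.5 CPM and 19.9 and 16.4 CPM, which overlapped. Collagens, laminins and integrins were depleted in both cell types, with medians of -1.10 in neurons and -1.54 in liver bud progenitors. Of 22 members, 4 passed towards neurons (18.2%, near the 17.7% of all members) and SPARC alone towards liver bud progenitors. FN1, fibronectin, fell by 1.67 on the log2 scale in liver bud P-bodies, from 6410 and 6708 CPM in cytoplasm to 1986 and 2150 CPM, and by 1.09 in neuron P-bodies, from 325 and 343 CPM to 161 and 152 CPM. Of 29 genes of endoplasmic reticulum translocation and folding, 11 passed towards liver bud progenitors and 2 towards neurons, and 17 towards the first without the second neuron P-body library. SRP14 of the signal recognition particle differed by -0.87 ± 0.10 and HSP90B1, the chaperone of the reticulum, by 1.00 ± 0.10.

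Of 31 kinesins, the motors of microtubule transport and of the spindle, 14 had higher enrichment in neurons against 2 in liver bud progenitors. The shares were 45.2% and 6.45%, beside 17.7% and 20.2% of all members. KIF18A, a motor of mitotic chromosomes, was enriched in both cell types, with 90.3 and 99.1 CPM in neuron P-bodies against 7.497 and 9.27 CPM and 288 and 279 CPM in liver bud P-bodies against 102 and 91.2 CPM. KIF13B switched towards neuron P-bodies, with log2 ratios of 1.01 in neurons and -0.55 in liver bud progenitors. KIF5C, the neuronal heavy chain of the axonal motor, went the other way, at 431 and 455 CPM in neuron P-bodies against 869 and 888 CPM, a difference of -0.89 ± 0.10.

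**Figure D4:**
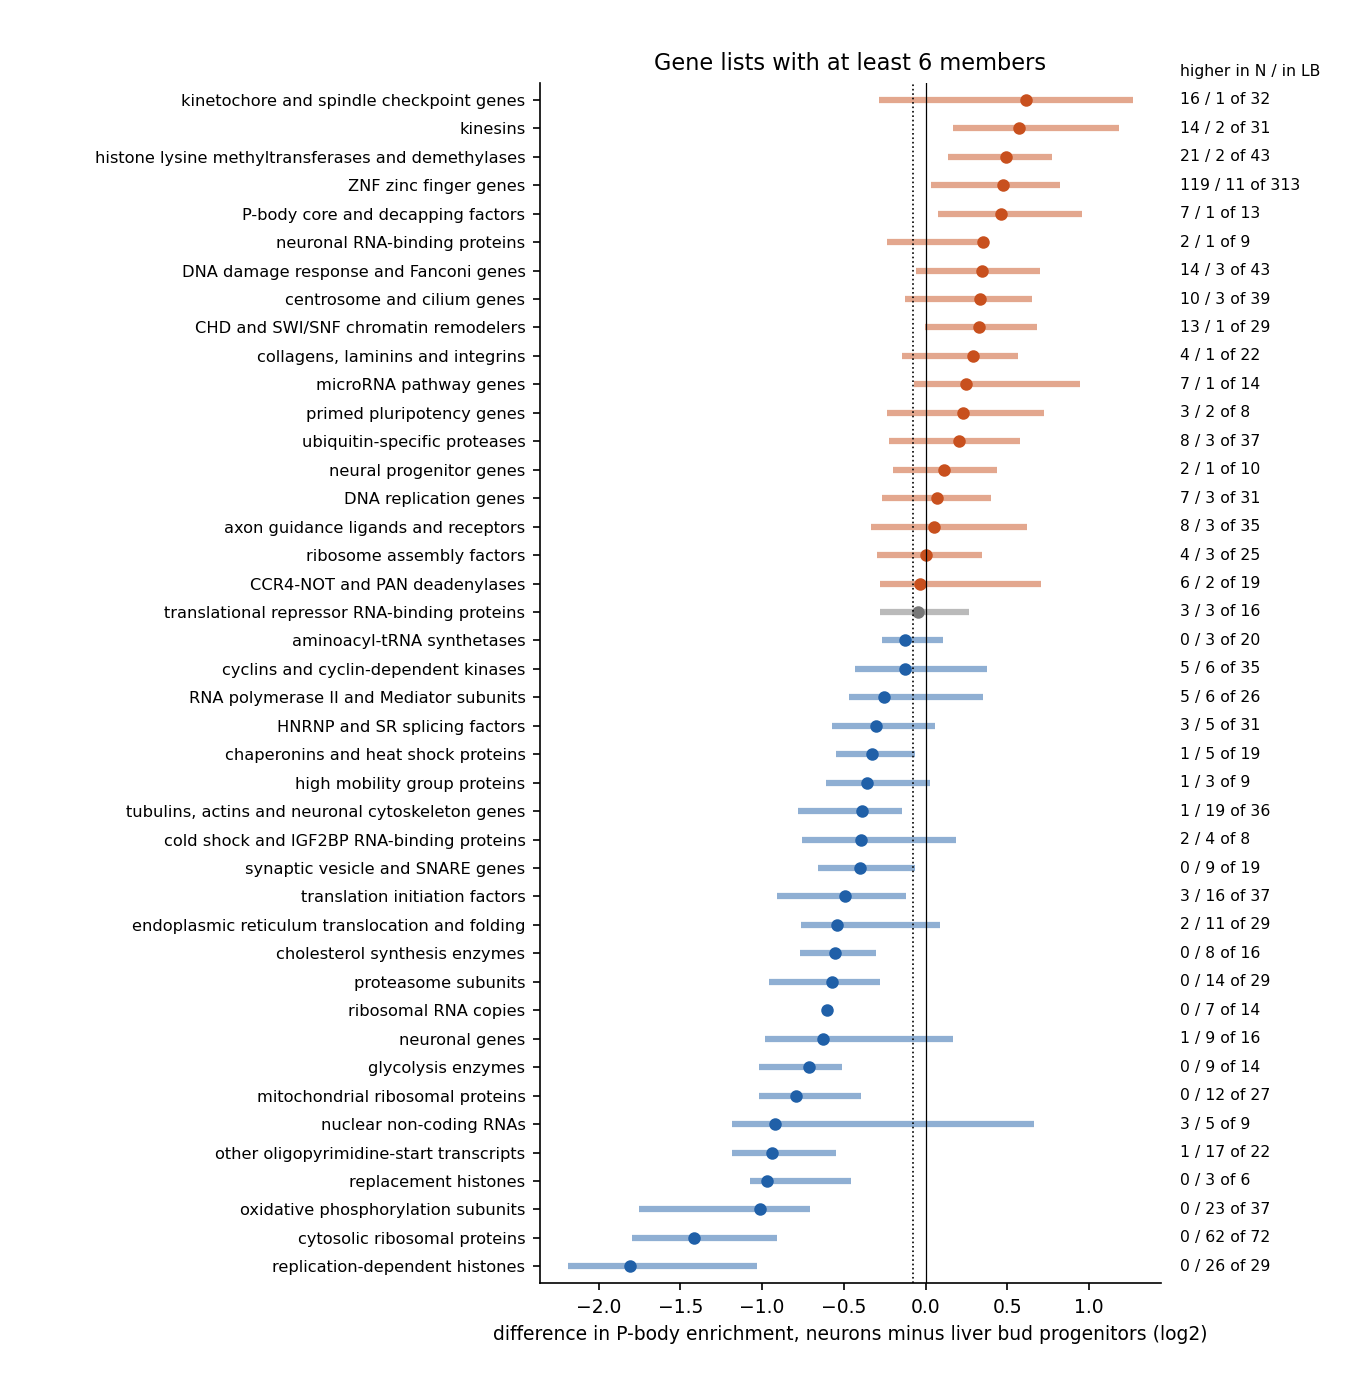
Difference in P-body enrichment, neurons minus liver bud progenitors on the log2 scale, for the lists with at least 6 members. Points are medians, bars span the quartiles, the dotted line is the median of all 7082 members, and the numbers on the right count the members called towards each cell type, neurons first. Replication-dependent histones (-1.81) and ribosomal proteins (-1.42) lie lowest, and kinetochore genes (0.61) and kinesins (0.57) highest.

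Among lists of nuclear and cell division genes, calls towards neurons were most numerous for the ZNF genes, the list with the most members, and few members switched. By share called towards neurons, the ZNF genes (38.0%) stood below 3 of these lists. These were kinetochore and spindle checkpoint genes (16 of 32), histone lysine methyltransferases and demethylases (48.8%) and CHD and SWI/SNF remodelers (44.8%). Of 313 ZNF zinc finger genes, most of which encode DNA-binding factors, 119 had higher enrichment in neurons against 11 in liver bud progenitors, where 17.7% of all members were called in the first direction. Their median ratio was 1.18 in neurons and 0.84 in liver bud progenitors. Without the first neuron cytoplasm library 76 were called higher in neurons and without the second liver bud P-body library 79, and without the second neuron P-body library 28 were called higher in liver bud progenitors. Switches numbered 3 in each direction, ZNF318, ZNF462 and ZNF609 towards neuron P-bodies and ZNF124, ZNF577 and ZNF880 towards liver bud P-bodies. ZNF146 had 599 and 662 CPM in neuron P-bodies against 70.6 and 79.1 CPM, and 1491 and 1537 CPM in liver bud P-bodies against 498 and 502 CPM. ZNF124 was the exception with the smallest p of the list, at 439.9 and 467 CPM in liver bud P-bodies against 202 and 196 CPM and 84.5 and 82.6 CPM in neuron P-bodies against 128 and 133 CPM, a difference of -1.83 ± 0.11 (edgeR adjusted p = 5.72e-08). Zinc finger genes are a multigene family with close copies, so single members are uncertain.

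Of 29 CHD and SWI/SNF remodelers, 13 (44.8%) had higher enrichment in neurons against 1 (3.45%) in liver bud progenitors. Of 43 histone lysine methyltransferases and demethylases the counts were 21 (48.8%) and 2 (4.65%). Among all members the shares were 17.7% and 20.2%. CHD7, a remodeler needed in the neural crest and nervous system, had 4525 and 4534 CPM in neuron P-bodies against 1163 and 1178 CPM, while in liver bud progenitors, at 692 and 752 CPM in P-bodies and 755 and 771 CPM in cytoplasm, the fractions did not overlap but did not pass. The difference was 2.03 ± 0.08 (edgeR adjusted p = 1.34e-09). EZH2, the methyltransferase of Polycomb repressive complex 2, was enriched in both, 6.06-fold in neurons and 1.80-fold in liver bud progenitors. KMT2A and KMT2C differed by 0.76 ± 0.08 and 0.85 ± 0.08. ARID1A, a SWI/SNF subunit, was depleted in both, at -0.38 in neurons and -1.17 in liver bud progenitors.

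Of 32 kinetochore and spindle checkpoint genes, 16 had higher enrichment in neurons against 1 in liver bud progenitors, with a median difference of 0.61 and 0 switches. Their 46 genes summed to 3528 and 3633 CPM in neuron P-bodies and 1181 and 1226 CPM in neuron cytoplasm, against 5975 and 5911 CPM and 3404 and 3303 CPM in the fractions of liver bud progenitors. BUB1B, the checkpoint kinase BUBR1, had 281 and 287 CPM in neuron P-bodies against 37.3 and 38.3 CPM, and 348 and 374 CPM in liver bud P-bodies against 205 and 188 CPM, a difference of 2.03 ± 0.12. Among 43 DNA damage genes the counts were 14 (32.6%) and 3 (6.98%), and the median difference of 0.34 fell to between 0.23 and 0.32 without 1 library. Among 39 centrosome and cilium genes they were 10 and 3, with 25.6% towards neurons. Among 31 DNA replication genes they were 7 and 3, and among 37 ubiquitin-specific proteases 8 and 3. These last shares towards neurons, 22.6% and 21.6%, were near the 17.7% of all members. BRCA1 of homologous recombination and CEP135 of the centriole were enriched in both cell types and more in neurons, by 1.13 ± 0.13 and 1.47 ± 0.18, and TOP2A and MCM10 by 1.16 and 1.57. USP37, a protease that removes ubiquitin, had 177 and 189.6 CPM in neuron P-bodies against 29.5 and 27.5 CPM. Cyclins and cyclin-dependent kinases were mixed, with 5 and 6 of 35. CCNG1, cyclin G1, was 2.91-fold enriched in liver bud P-bodies, at 2768 and 2745 CPM against 989.9 and 906 CPM, and lay at 77.7 and 75.4 CPM and 81.4 and 92.9 CPM in the fractions of neurons. With library size only, the calls towards neurons were 181 for the ZNF genes, 32 for the methyltransferases and demethylases, 26 for DNA damage, 23 for kinesins, 21 for centrosome and cilium and 13 for DNA replication. RNA polymerase II and Mediator subunits had 5 and 6 of 26, and HNRNP and SR splicing factors 3 and 5 of 31, with HNRNPA1 and HNRNPA3 as switches towards liver bud P-bodies. Without a neuron P-body library, 11 to 14 splicing factors and 11 to 12 cyclins and kinases were called higher in liver bud progenitors.

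Of 13 messages of P-body core and decapping factors, 7 had higher enrichment in neurons against 1 in liver bud progenitors, and 5 did not pass, with a median ratio of 1.205 in neurons and 0.42 in liver bud progenitors. LSM14A, whose reads include those of the tagged copy wherever both share sequence, had 657 and 645 CPM in neuron P-bodies against 144 and 153 CPM, and 1766 and 1777 CPM in liver bud P-bodies against 1408 and 1489 CPM. Its difference was 1.84 ± 0.09 (edgeR adjusted p = 5.28e-09). DCP2, the decapping enzyme, and DDX6 were enriched in both and by 1.19 ± 0.14 and 0.56 ± 0.10 more in neurons. PATL1, which joins DDX6 to the decapping complex, switched, with 213 and 184 CPM in neuron P-bodies against 136 and 131 CPM, and 109 and 112 CPM in liver bud P-bodies against 155 and 134 CPM. EIF4ENIF1 passed in neurons alone, at 174 and 170.1 CPM in P-bodies against 61.6 and 58.6 CPM, and in liver bud progenitors its libraries overlapped. The 1 call towards liver bud progenitors was LSM2, a subunit of the Lsm ring, named after its values were seen, with 13.93 and 13.99 CPM in liver bud P-bodies against 9.12 and 10.7 CPM and 7.10 and 5.04 CPM in neuron P-bodies against 13.3 and 17.8 CPM. Its difference of -1.86 ± 0.39 was the largest of the list in size and rested on low counts. EDC4, a decapping scaffold, was depleted in both and did not differ beyond its error, at 0.07 ± 0.26 (edgeR adjusted p = 0.894).

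Among 14 genes of the microRNA pathway 7 passed towards neurons and 1 towards liver bud progenitors, and among 19 deadenylase genes 6 and 2. Of all members, 17.7% and 20.2% were called in these directions. The median difference of the deadenylase list, -0.03, was near the -0.08 of all members, and that of the microRNA list was 0.25. The GW182 proteins TNRC6A and TNRC6B, which link Argonaute to deadenylation, had 933 and 955 CPM and 2381 and 2303 CPM in neuron P-bodies against 246 and 238 CPM and 771 and 788 CPM in neuron cytoplasm. Their differences were 1.32 ± 0.09 and 1.07 ± 0.08. LIN28B, the let-7 repressor, was 9.997-fold enriched in neurons and 3.001-fold in liver bud progenitors. CNOT1, the scaffold of the CCR4-NOT complex, differed by 0.63 ± 0.08, and CNOT7, a catalytic subunit, by -0.89 ± 0.17. Of 8 cold shock and IGF2BP genes 2 passed towards neurons and 4 towards liver bud progenitors, among them YBX1. Of 16 translational repressors 3 passed in each direction, where CPEB4, which binds cytoplasmic polyadenylation elements, differed by 0.94 ± 0.11 and CELF2 switched towards liver bud P-bodies at -0.88 ± 0.13. POLK and TET2, a DNA polymerase and a methylcytosine dioxygenase that the study imaged in HEK293T cells, were enriched in each cell type and by 0.72 ± 0.15 and 1.07 ± 0.09 more in neurons.

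Genes outside the lists were also among the calls without a switch that had the smallest p. PRTG, protogenin, a cell surface protein of the early embryo, had 1009 and 1056 CPM in neuron P-bodies against 96.0 and 93.4 CPM, a 10.9-fold enrichment, and 471 and 459 CPM in liver bud P-bodies against 309 and 298 CPM, a 1.53-fold one. The difference was 2.83 ± 0.10 (edgeR adjusted p = 3.05e-10). ZBTB18, a zinc finger repressor of neuronal development, was 8.003-fold enriched in neurons and 1.83-fold in liver bud progenitors. Of the switching genes, 76 of the 91 towards neuron P-bodies and 210 of the 327 towards liver bud P-bodies were in none of the 49 lists.

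Non-coding RNAs took both directions. The snoRNA host genes SNHG14 and SNHG16 switched towards liver bud P-bodies, with differences of -1.27 ± 0.10 and -0.91 ± 0.11, and GAS5, which carries a pyrimidine-run start, differed by -1.65 ± 0.27. Of 9 nuclear RNAs, 3 passed towards neurons and 5 towards liver bud progenitors. KCNQ1OT1, an imprinted antisense RNA, had 55.3 and 66.1 CPM in liver bud P-bodies against 242 and 228 CPM and did not pass in neurons, at 90.4 and 100.03 CPM against 100.4 and 116 CPM. Its reads and those of the sense gene could not be told apart without strand. RN7SK, the RNA that restrains the elongation factor P-TEFb, had 2520 and 2495 CPM in neuron P-bodies against 6534 and 6402 CPM, and 953 and 993 CPM in liver bud P-bodies against 1024 and 1175 CPM. Of 14 ribosomal RNA copies, which share reads, 7 passed towards liver bud progenitors and 0 towards neurons, with a median ratio of -1.11 in neurons and -0.51 in liver bud progenitors. Scaling by library size alone left 1 in each direction, and without a neuron P-body library 11 to 12 passed towards liver bud progenitors.

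Genes that switched in opposite directions differed in transcript length. By the canonical transcript of GENCODE 44, found for 98.4% of the members, the median length was 4392 bases for all members, 7424 bases for switches towards neuron P-bodies and 2758.5 bases for switches towards liver bud P-bodies. The median coding length was 1740, 3765 and 792 bases in the same order. Among 218 members under 1 kb, 139 had higher enrichment in liver bud progenitors and 2 in neurons, with a median difference of -1.03. The median then rose from class to class, through -0.58, -0.15 and 0.07, to 0.11 among 1042 members of 8 kb and over. In neurons the median log2 ratio moved from -0.59 in the shortest class to 0.09 in the longest, and in liver bud progenitors from 0.53 to 0.11. Leaving out the members of 9 lists with short transcripts, such as ribosomal proteins and histones, the median of the shortest class was -0.81 and 54 of 119 had higher enrichment in liver bud progenitors. Across 6967 members, the Spearman correlation of length was 0.30 with the difference, 0.17 with the ratio in neurons and -0.09 with that in liver bud progenitors. Genes are not independent points and share the 8 libraries, and between replicates of a group the correlation with length lay between -0.10 and 0.07.

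GC content was correlated more strongly with the ratio in each cell type than with the difference between them. Its Spearman correlation was -0.68 with the ratio in neurons and -0.74 with that in liver bud progenitors, and -0.13 with the difference. Between replicates of a group the correlation with GC content lay between -0.41 and 0.44. The median GC content was 45.9% for all members, 48.5% for switches towards neuron P-bodies and 44.5% for switches towards liver bud P-bodies. Whether length or GC content had a part in the calls was not tested.

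**Figure D5:**
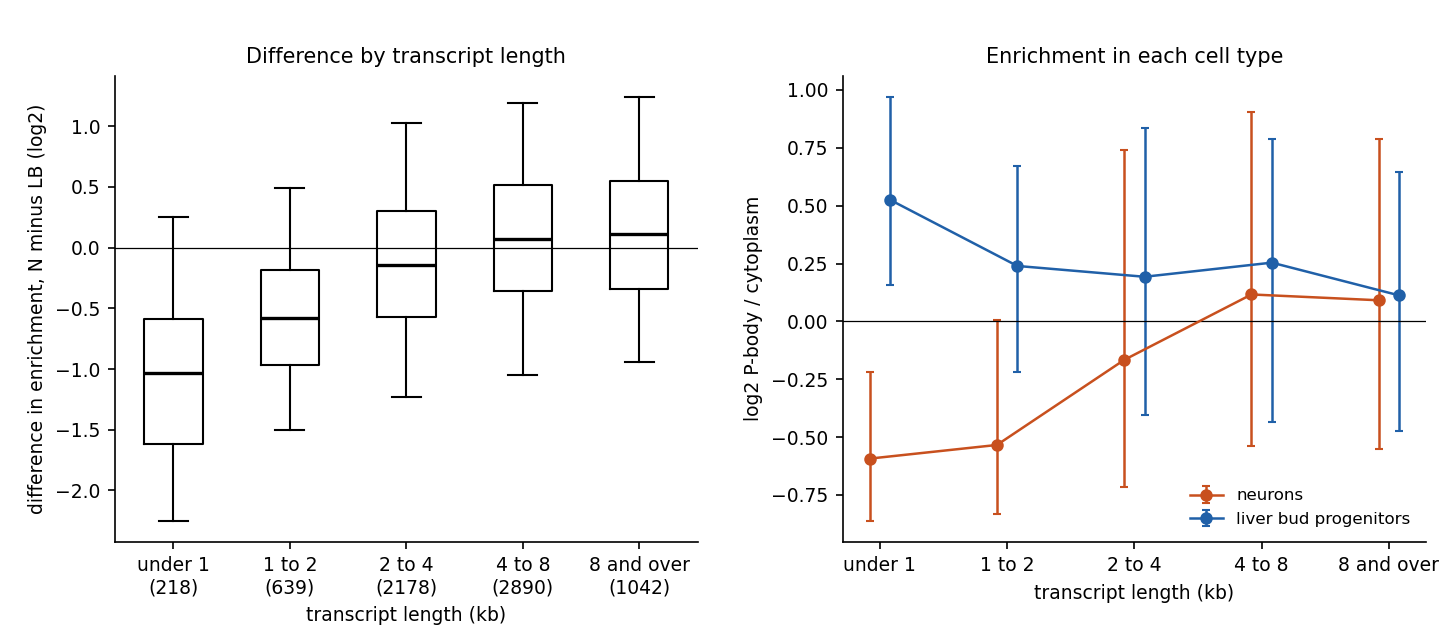
Left, the difference in P-body enrichment, neurons minus liver bud progenitors, by transcript length, with boxes at the quartiles, whiskers at the 5th and 95th percentiles and the number of genes in parentheses. Right, the median log2 ratio in each cell type with bars at the quartiles. The difference rises from -1.03 under 1 kb to 0.11 at 8 kb and over, and in the shortest class the medians of the 2 cell types lie on opposite sides of 0.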

How the data were processed

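The counts per gene deposited by the authors are whole numbers on hg38, from paired-end polyA libraries. Before testing for P-body enrichment, the authors removed genes with fewer than 10 reads over all samples. Per the methods, Smart-seq libraries were mapped with HISAT2 and counted with featureCounts on the UCSC refGene annotation, and snapTotal-seq libraries were counted with salmon. The polyA libraries were taken to be Smart-seq, which no source used here states for these columns. The strand setting is not given in the sources used here. The labels' processing notes name DESeq2. The authors' own tables of fold changes and p-values, the mouse table and the HEK293T columns were not used. Of the table's genes, 22268 with a count in the 8 libraries were fitted with edgeR 4.0.16 in R 4.3.3 (TMM scaling, glmQLFit, glmQLFTest, cell type by fraction, Benjamini-Hochberg over all genes, threshold 0.05), with no filter on low counts. CPM use TMM library sizes, and errors are SE of log2 differences. Members and lists were chosen with earlier results of these data known. Genes were named by rule: 10 switches in each direction with the smallest p, up to 4 called members per list, 3 other calls in each direction, and LSM14A, DDX6, EDC4, POLK and TET2, with the exceptions stated. Lengths and GC came from GENCODE 44 canonical transcripts and starts from RefSeq. Scripts were tested on simulated data. DESeq2 1.42.0, other scalings, filters, a replicate block and leaving out each library were the alternatives.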

Additional observations from a re-analysis of the deposited data

Results flagged for a closer look

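The test of the difference between the cell types marked the counts of genes on either side for a closer look. Enrichment was higher in neurons for 1257 members and higher in liver bud progenitors for 1429. The fraction switched towards neuron P-bodies for 91 members and towards liver bud P-bodies for 327. With 2 libraries in each group, single libraries could not be tested as outliers.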

How the results depend on the processing

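With library size only, 2235 members were called higher in neurons against 677 in liver bud progenitors, and 219 and 151 switched towards neuron and liver bud P-bodies. The filter of edgeR on low counts gave 152 switches towards neuron P-bodies, and a fit of the members alone 2154 members higher in neurons and 231 such switches. Asking for at least 1.5-fold in each cell type left 16 and 153 switches. Leaving out 1 library at a time gave 839 to 1349 members higher in neurons, 951 to 2335 higher in liver bud progenitors, 49 to 94 switches towards neuron P-bodies and 223 to 571 towards liver bud P-bodies. The lowest count of switches towards neuron P-bodies, 49, was without the first liver bud P-body library, and it was 60 and 52 without the first and second liver bud cytoplasm library and 60 and 58 without those of neurons. DESeq2 called 1238 and 1205 members, with 93 and 270 switches. Lowering the limit to 5 CPM or raising it to 20 CPM gave 100 and 77 switches towards neuron P-bodies and 361 and 262 towards liver bud P-bodies. The cause of these shifts was not tested. Fewer libraries leave fewer degrees of freedom, and a group of 1 library was assumed to vary like the others.

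The median difference of 12 of the 41 lists changed sign under at least 1 alternative. With library size only the medians were 0.028 for chaperonins and heat shock proteins, 0.056 for HNRNP and SR factors, 0.10 for RNA polymerase II and Mediator and 0.31 for translational repressors, which were also at 0.10 with the low-count filter and 0.19 in the fit of members alone. The DNA replication list was at -0.019 with at least 5 CPM, -0.068 without neuron P-body replicate 1 and -0.06 without neuron cytoplasm replicate 2, and the primed pluripotency list between -0.018, without neuron P-body replicate 1, and 0.262. Medians nearer 0 also crossed it, by library size only at 0.328 for deadenylases, 0.231 for aminoacyl-tRNA synthetases and 0.229 for cyclins and kinases, and without a neuron P-body replicate at -0.16 for axon guidance, -0.181 for neural progenitor genes and -0.183 for ribosome assembly factors. EDC4, not called, lay between -0.27 and 0.23 without 1 library, with values of -0.07, -0.01, -0.27 and -0.19 below 0. Among the named genes, 2508 recomputed values kept their direction and their side of the threshold, 53 kept the direction and no longer passed, and 4, all of EDC4, changed sign.

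With the replicate number as a block, 1459 and 1725 members were called, with 111 and 407 switches. Per the methods, P-bodies were sorted out of a cytoplasmic fraction of which aliquots were kept. The labels do not say that equal replicate numbers mark 1 such preparation. Deviations of P-body and cytoplasm libraries with the same number correlated at 0.118 for neurons and 0.0361 for liver bud progenitors. These values do not decide whether the numbers are pairs, and the main fit did not use them as such. No count moved by over 1.5 times with the block.

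Depth limits genes near 10 CPM. With 2 libraries in a group, small ratios that did not pass are not shown to be equal, and intervals cover the spread between libraries only.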
